A study of Mus musculus with 2 samples.

Results

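The nuclear-encoded genes of the mitochondrial respiratory chain and ATP synthase were followed through the cells of CMT167R tumours. CMT167R is a mouse tumour line that the labels call resistant to anti-PD1, and its cells are given as wild type. Genes were taken by symbol: Nduf genes of the a, b, c, s and v series for complex I, Sdha to Sdhd for complex II, Uqcr genes for complex III, Cox4i to Cox8 genes for complex IV and Atp5 genes for complex V. Ndufa4 and Ndufa4l2, pseudogenes and predicted genes were left out. This gave 82 of the 32285 genes listed: 35 of complex I, 4 of complex II, 8 of complex III, 18 of complex IV and 17 of complex V. The rule itself uses symbols and no measured level, but it was set with earlier results of these data known.

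Both groups were C57BL/6 mice carrying CMT167R tumours under the skin. Control mice received solvent alone, and treated mice received 3 mg/kg of an agent labelled PKCi every day by the intraperitoneal route; the mice's ages and the number of tumours in a library were not given in the sources used here. Tumours were taken when the control tumours had reached 400 mm3, a point at which, per the labels, the groups differed in tumour volume. There was 1 library of single-cell 3' RNA per treatment, which allows no test of the treatment, and all intervals below are for counting error only.

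Complexes I to IV pass electrons from NADH and succinate to oxygen, and complexes I, III and IV pump protons as they do so. Complex V, the ATP synthase, lets the protons flow back and makes ATP. Most subunits are encoded in the nucleus and are built into one complex with the few that mitochondrial DNA encodes, so both sets have to be supplied; complex II is nuclear-encoded throughout.

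RNA molecules were counted by unique molecular identifiers (UMIs), of which there were 222641855 in control and 229219749 in PKCi. Filtering kept 6269 control cells (median 32992 UMIs) and 7078 PKCi cells (median 29550.5), and 18 of their barcodes occurred in both libraries. Clusters were named from marker genes. The main population held 4820 control and 5326 PKCi cells. Of its 5 markers, only Krt8 reached 50 CPM (counts per 1000000 UMIs of the class), at 381.6 CPM in control and 482.3 CPM in PKCi, so these cells are called the main population and not by a cell type. With 100 or more cells on both sides there were 3 further classes, monocyte-like (568 and 491 cells), macrophage-like (192 and 544) and neutrophil-like (267 and 167). Smaller classes, resembling T, NK, dendritic, endothelial and fibroblast cells, are only described, and 219 and 267 cells stayed unnamed. Krt8, as a trace of the main population, stood in monocyte-like, macrophage-like and neutrophil-like cells at 6.90%, 11.8% and 10.1% of its main-population level in control and at 7.23%, 18.8% and 12.7% in PKCi. The part of such free RNA in the results below was examined by subtracting it.

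Promoters are shown for 3 complex I genes that were among the lowest in PKCi macrophage-like cells, because they carry the best-known sequence elements of respiratory chain genes. Promoters were taken from RefSeq (GRCm38.p6), which matched 67 of the 82 genes, and run from 250 bases before to 50 bases after the start of the gene as RefSeq gives it. Both strands were searched for 4 motifs: GCGCATGC, the core of the site of NRF1; CCGGAAGT, an ETS site as bound by GABPA; AAGATGGC, a site of YY1; and ACGTGC, the hypoxia response element. On GCGCATGCGC the first motif matches on both strands with an overlap. Capitals mark the matches, and each sequence reads 5′ to 3′ on the strand of the gene.
Ndufa11 (chr17:56717512-56717811, + strand): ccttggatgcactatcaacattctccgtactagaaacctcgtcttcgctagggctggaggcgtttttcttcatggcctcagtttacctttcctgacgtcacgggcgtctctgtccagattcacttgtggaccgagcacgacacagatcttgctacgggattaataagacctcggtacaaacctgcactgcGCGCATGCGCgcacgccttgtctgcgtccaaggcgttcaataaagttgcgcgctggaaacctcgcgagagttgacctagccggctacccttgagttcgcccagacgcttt
Ndufa8 (chr2:36049289-36049588, - strand): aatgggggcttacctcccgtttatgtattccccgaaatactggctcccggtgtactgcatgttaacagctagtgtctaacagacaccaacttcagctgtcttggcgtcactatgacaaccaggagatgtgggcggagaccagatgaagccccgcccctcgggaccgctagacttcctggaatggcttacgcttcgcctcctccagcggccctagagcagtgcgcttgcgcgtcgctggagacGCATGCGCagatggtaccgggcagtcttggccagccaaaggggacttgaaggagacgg
Ndufs7 (chr10:80249199-80249498, + strand): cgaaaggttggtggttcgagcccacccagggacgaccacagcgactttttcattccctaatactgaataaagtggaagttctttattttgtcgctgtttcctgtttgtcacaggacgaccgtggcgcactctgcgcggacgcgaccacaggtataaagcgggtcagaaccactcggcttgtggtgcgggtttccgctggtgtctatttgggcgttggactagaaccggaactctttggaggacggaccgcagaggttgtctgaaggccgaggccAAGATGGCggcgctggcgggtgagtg
Ndufa11 encodes a membrane-arm subunit of complex I and lies at chr17:56717767-56722141, Ndufa8 encodes an accessory subunit (chr2:36036326-36049406), and Ndufs7 encodes a core subunit that holds an iron-sulphur cluster (chr10:80249121-80256794). These gene positions are those of GENCODE M21 on GRCm38, which places the start of Ndufs7 further upstream, so that its window lies within that gene model.

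The NRF1 core stood in 10 of the 67 promoters (14.9%), against 3.05% of the promoters of all 27025 genes in the table. The YY1 motif stood in 10 (14.9%) against 3.19%, and 8 of its 10 matches lay after the start of the gene. The ETS motif stood in 5 (7.46%) against 4.31%, and the hypoxia response element in 4 (5.97%) against 6.68%. In macrophage-like cells the median log2 ratio of PKCi over control was -0.26 for the 10 members with the NRF1 core and -0.30 for the 53 without. For the YY1 motif the medians were -0.34 (10 members) and -0.29 (53 members), for the ETS motif -0.14 (5 members) and -0.30 (58 members), and for the hypoxia response element -0.25 (2 members) and -0.30 (61 members). These medians leave out the members on chromosome 18, Ndufa2 and Atp5a1, and members too low to be compared. They thus cover fewer genes than the 67 promoters. A match describes these letters and shows no binding.

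In the main population the 82 genes together made up 1.72% of UMIs in the control library and 1.63% in the PKCi library. Complex V took the largest part in control (0.561% of UMIs), followed by complex I (0.491%), complex IV (0.445%), complex III (0.187%) and complex II (0.0350%). A 3' library is meant to count 1 tag per molecule, so levels are set beside each other between genes without a length correction. Genes may still differ in capture and in the assignment of reads, which was not tested. The highest levels in control were Atp5b, the catalytic beta subunit of ATP synthase, at 830.5 CPM, and Cox8a, a small subunit of complex IV, at 685.4 CPM. Cox4i1, the common form of the largest nuclear-encoded subunit of complex IV, stood at 585.4 CPM, and Atp5a1, the alpha subunit of ATP synthase, at 447.5 CPM. Within complex III the highest were Uqcrq (395.7 CPM) and the hinge protein Uqcrh (357.7 CPM). Within complex I they were Ndufa2 (297.1 CPM) and Ndufb8 (245.7 CPM). The complex II genes were low throughout, from 65.7 CPM for the membrane anchor Sdhc to 116.8 CPM for the iron-sulphur subunit Sdhb.

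As a part of all UMIs, the share of these genes was alike in most classes and much lower in neutrophil-like cells. In the control library it ran from 1.54% of UMIs in fibroblast-like to 1.94% in NK-like cells among the other classes, and was 0.692% in neutrophil-like cells. In the PKCi library the range was 1.39% (fibroblast-like) to 1.77% (NK-like), with 0.639% in neutrophil-like cells. The fibroblast-like class is uncertain, since Krt8 there stood at 55.7% of its main-population level in control and 22.9% in PKCi. The likeness also depends on the total used. Without mitochondrial, ribosomal and haemoglobin UMIs in it, the log2 ratio of monocyte-like cells to the main population was -0.349 in control and -0.150 in PKCi. For macrophage-like cells it was -0.203 and -0.366.

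**Figure D1:**
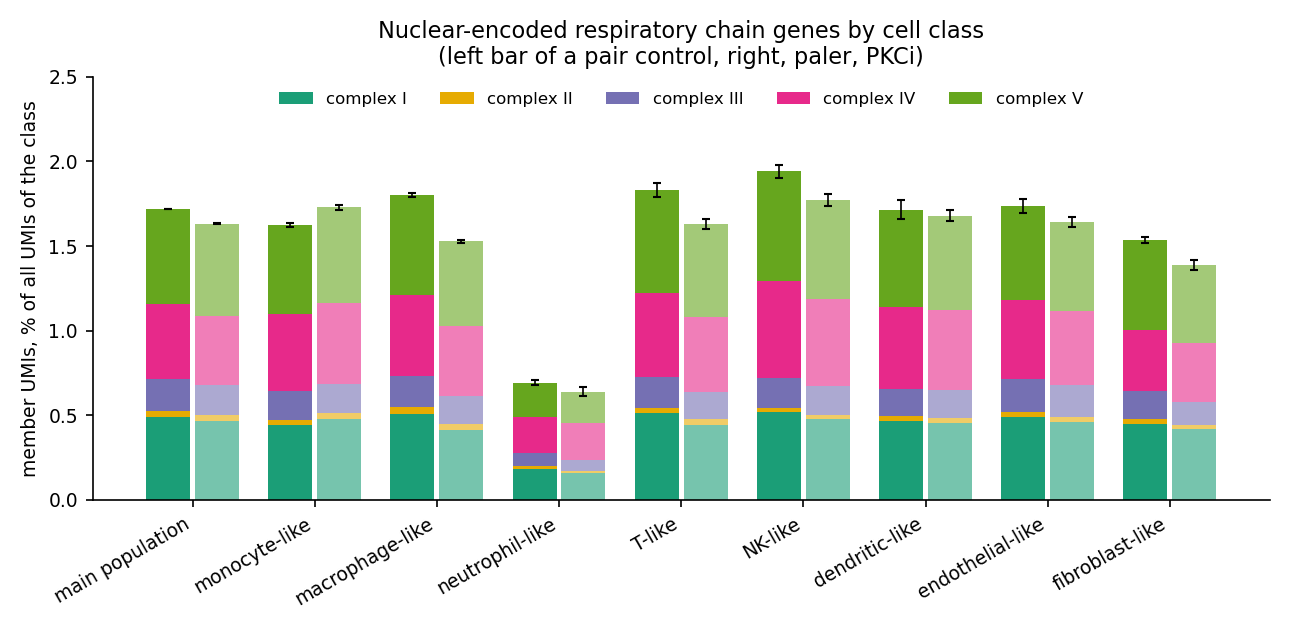
Bars show the summed UMIs of the 82 genes as a percent of all UMIs of a class, stacked by complex, with the control library on the left and the PKCi library, paler, on the right of each pair; error bars are 95% counting intervals of the sum. Neutrophil-like cells stand at 0.692% and 0.639%, and the other classes lie between 1.39% and 1.94%.

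Relative to the main population, neutrophil-like cells had 0.402 times the share in control (interval 0.393 to 0.412) and 0.392 times in PKCi (0.376 to 0.408). Of the 75 members measured, 71 were at least 1.2-fold lower in control, where 65.7% of all genes were, and 70 in PKCi, where 61.5% of all genes were. The median log2 ratio of the members was -1.56 in control and -1.71 in PKCi, beside -1.21 and -0.99 over all genes, so most genes were lower on this scale. With the trace of main-population RNA subtracted, the log2 ratio of the sum to the main population was -1.58 in control in place of -1.31, and -1.73 in PKCi in place of -1.35.

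The members with the widest spread over the 4 classes in control were Ndufa9, Ndufa10 and Atp5g2. Ndufa9, an accessory subunit of complex I, stood at 61.6 CPM in the main population, 57.4 CPM in macrophage-like, 46.6 CPM in monocyte-like and 6.95 CPM in neutrophil-like cells. Ndufa10 ran in the same order from 141.3 through 112.6 and 70.4 to 18.9 CPM. Atp5g2, one of 3 genes for the same subunit c of the ATP synthase ring, was highest in macrophage-like cells at 444.8 CPM, with 383.5 CPM in the main population, 344.2 CPM in monocyte-like and 64.5 CPM in neutrophil-like cells. Neighbours in the order stood apart by more than counting error for Ndufa10 and Atp5g2. For Ndufa9 the interval of macrophage-like cells overlapped those of the main population and of monocyte-like cells. At the other end, Atp5l and Ndufa3 in control were not lower in neutrophil-like cells (307.8 and 85.4 CPM) than in the main population (288.4 and 68.0 CPM). For Atp5l this did not hold in the PKCi library.

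The 3 subunit c genes encode the same mature protein behind different import sequences, and their mix differed by class. Atp5g2 gave 39.3% of their UMIs in control main-population cells (Clopper-Pearson interval 39.1% to 39.5%) and 41.3% in PKCi. In NK-like cells it gave 54.9% and 56.9%, and in T-like cells 51.6% and 52.6%. In macrophage-like cells the share of Atp5g1 was 30.6% in control and 24.7% in PKCi, and that of Atp5g2 was 42.1% and 45.6%.

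Some complex IV subunits have forms that other tissues use, and these were close to absent here. Cox8c had 0 UMIs in every named class, Cox8b had 1 UMI in all, and Cox7b2 and Cox6b2, known from testis, had 10 and 5 UMIs in control main-population cells among 199741004. Cox7a1, the heart and muscle form, stood at 1.97 CPM in control and 1.70 CPM in PKCi main-population cells, against 357.7 and 288.4 CPM for its common partner Cox7a2. Together with Cox4i2 and Cox6a2 these 7 genes were too low for the comparison of treatments in the main population.

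Cox4i2, the form of Cox4i1 known from lung and from low oxygen, was high in a few cells of clusters with vascular genes. In endothelial-like cells it stood at 35.1 CPM in control (14 UMIs) and 51.5 CPM in PKCi (43 UMIs), and all of these came from the cluster of 8 and 11 cells that also carried the pericyte gene Rgs5. An unnamed cluster led by Rgs5, Acta2, Tagln and Mgp, with 10 control and 12 PKCi cells, held 62 and 35 UMIs, or 355.1 and 126.5 CPM. There Cox4i2 made up 30.2% of the UMIs of both Cox4i genes in control and 16.2% in PKCi. Main-population cells had 18 and 19 UMIs, or 0.0901 and 0.0925 CPM. Krt8 stood at 363.3 CPM in the Rgs5-led cluster, close to the main population, so its cells may include mixed barcodes, which was not tested. In the larger immune classes, Cox4i2 had 22 UMIs in control and 5 in PKCi macrophage-like cells, and 22 and 4 in monocyte-like cells.

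Cox6a2, the muscle form of Cox6a1, differed between libraries in the main population at a very low level. It had 68 UMIs in 52 control cells (0.340 CPM) and 302 UMIs in 175 PKCi cells (1.47 CPM). Most of the PKCi UMIs, 172, came from the cluster led by Gm47080 and Gm49313, where the control library had 23. Cox6a1 stood at 152.3 and 144.2 CPM in the same class. Macrophage-like cells had 3 UMIs of Cox6a2 in control (0.824 CPM) and 25 in PKCi (3.38 CPM), and monocyte-like cells 3 (0.568 CPM) and 10 (2.53 CPM). Elsewhere, 1 dendritic-like PKCi cell held all 16 UMIs of that class, and 3 of 12 PKCi cells in an unnamed cluster led by Igkc, Klk1, Iglc2 and Siglech held 19.

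Between the treatments, the summed level in the main population was 0.949 times as high in PKCi as in control (interval 0.9475 to 0.9503), and 75 members could be compared. A gene was counted as higher or lower when it differed by at least 1.2-fold with an interval that excluded 1. By that rule 0 of 75 members were higher, where 3.33% of the 6275 genes compared were, and 5 were lower, where 3.11% were. Small differences were frequent: 59 of 75 members (78.7%) lay below 1, against 58.4% of all genes, and the median log2 ratio was -0.09 for members and -0.02 for all genes. Every complex lay below 1, from 0.916 for complex IV to 0.966 for complex V.

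The 5 lower members were small subunits. Cox7b, an X-linked subunit of complex IV (chrX:106015700-106022450), had 336.5 CPM in control and 262.5 CPM in PKCi, a log2 ratio of -0.36. Cox7a2, another complex IV subunit, had 357.7 and 288.4 CPM (-0.31). Atp5mpl and Atp5md, small membrane proteins of ATP synthase, had 82.7 and 67.7 CPM (-0.29) and 210.6 and 173.5 CPM (-0.28). Ndufv3, an accessory subunit of the NADH-binding module of complex I, had 105.9 and 88.2 CPM (-0.26). The highest ratios were small. Cox7a2l had 348.8 CPM in control and 380.9 CPM in PKCi (0.13), and Atp5f1 of the ATP synthase stalk had 390.5 and 425.8 CPM (0.12). Atp5d and Atp5g2 followed with 0.08 each. The abundant genes Cox4i1 (585.4 and 582.6 CPM) and Atp5a1 (447.5 and 445.8 CPM) had intervals of the ratio that included 1.

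The main population was made of clusters, and the PKCi library was lower in 9 of the 9 clusters with at least 50 cells in each library. The highest share was in the cluster led by Ly6c1 and Igfbp6, with 2.16% in control (433 cells) and 2.07% in PKCi (772 cells). The lowest shares were in the cluster led by Adm and Ndrg1, with 1.504% (513 cells) and 1.46% (256 cells), and in the one led by Gm4876 and Magi3, with 1.505% (583 cells) and 1.41% (742 cells). Clusters thus differed from each other by more than the libraries did within a cluster. The difference between libraries was widest in the cluster led by Ptn and Sema3a, at 1.78% and 1.57%. Cells share their library, so 9 clusters are not 9 replicates.

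Other mitochondrial and metabolic genes of the main population were described from lists. The 13 subunits encoded by mitochondrial DNA lay on the same side: their summed share was 1.78% in control and 1.60% in PKCi, a ratio of 0.900, and 3 of the 12 compared were lower (mt-Nd1 from 873.3 to 681.9 CPM, mt-Nd2 from 906.2 to 726.4 CPM, and mt-Atp8 from 55.9 to 46.3 CPM). The mitochondrial ribosome had 0 of 75 genes past the rule in either direction (ratio 0.982), the TCA cycle 0 of 13 (0.967) and the mitochondrial carriers and outer membrane 0 of 10 (1.01). Of 27 assembly factors, 1 was lower, Atpaf1, an assembly factor of ATP synthase (24.9 and 20.5 CPM). Of 8 regulators, 1 was lower, Nrf1 itself (68.6 and 56.6 CPM), while Myc stood at 507.8 and 606.4 CPM, just inside the rule. Of 9 electron carriers and coenzyme Q genes, 1 was lower, Pdss1 (52.1 and 42.2 CPM). Glycolysis differed by more than respiration. Its summed share was 0.761% in control and 0.613% in PKCi (ratio 0.806), and 10 of 12 genes were lower, among them Aldoa (607.6 and 439.1 CPM) and the lactate exporter Slc16a3 (173.3 and 126.2 CPM). Of 11 hypoxia genes 6 were lower, led by Adm (67.8 and 31.1 CPM) and Bnip3 (54.6 and 28.4 CPM), and 1, Hk2, was higher (153.1 and 184.3 CPM).

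Macrophage-like cells showed the widest difference of the summed level among the 4 classes as named here, while neutrophil-like cells were further apart with median of ratios scaling (log2 ratio -0.289 against -0.270) and with classes by markers alone (-0.263 against -0.154). The summed share was 1.80% in control and 1.53% in PKCi, a ratio of 0.849 (interval 0.841 to 0.857) and a log2 ratio of -0.24. Of 75 members 42 were lower, where 17.4% of the 6303 genes compared were, and 1 was higher, where 23.2% of genes were. Below 1 lay 70 of 75 members (93.3%), against 46.4% of all genes, and the median log2 ratio was -0.29 for members and 0.03 for all genes. By 1.5-fold, 2 members were lower, where 4.38% of genes were. Per cell, the median was lower too: the median cell had 1.81% in control (quartiles 1.45% and 2.12%) and 1.48% in PKCi (1.23% and 1.77%), so single cells of both libraries overlapped widely.

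Complex I differed most. Its share was 0.508% in control and 0.410% in PKCi (ratio 0.808), and 23 of its 35 members were lower. Ndufa12, an accessory subunit of the peripheral arm (chr10:94198720-94221443), had 133.2 CPM in control and 82.9 CPM in PKCi, a log2 ratio of -0.68. Ndufa11 had 148.8 and 97.4 CPM (-0.61), Ndufa8 155.4 and 108.3 CPM (-0.52), and Ndufs7 117.2 and 82.0 CPM (-0.52). In the main population Ndufa12 had 189.0 and 185.2 CPM and Ndufs7 99.98 and 98.1 CPM. Of the core subunits that bind iron-sulphur clusters or flavin, Ndufs8 had 103.0 and 73.1 CPM and Ndufv1 62.3 and 44.8 CPM. Not all of complex I was lower: Ndufs1 (40.1 and 44.3 CPM) and Ndufa6 (128.2 and 140.8 CPM) lay above 1 with intervals that included 1.

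Complexes V and IV came next, with ratios of 0.848 and 0.857. In complex V, 8 of 17 members were lower and 17 of 17 lay below 1, with Atp5g1 lowest at 323.1 CPM in control and 221.6 CPM in PKCi (log2 ratio -0.54), while Atp5a1 was even at 392.3 and 391.5 CPM. In complex IV, 7 of 11 compared members were lower, led by Cox5b (389.0 and 279.9 CPM) and Cox7a2 (346.5 and 254.9 CPM). Cox7a2l was the 1 member that was higher, at 196.3 CPM in control and 238.6 CPM in PKCi (0.28). Complex II (ratio 0.900) was split: Sdhb had 116.4 and 83.4 CPM (-0.48), whereas its catalytic partner Sdha had 104.9 and 111.2 CPM, Sdhc 123.0 and 114.8 CPM and Sdhd 93.1 and 84.4 CPM, all with intervals that included 1. Complex III differed least (0.930), with 3 of 8 members lower and Uqcrh at 306.9 and 335.7 CPM.

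**Figure D2:**
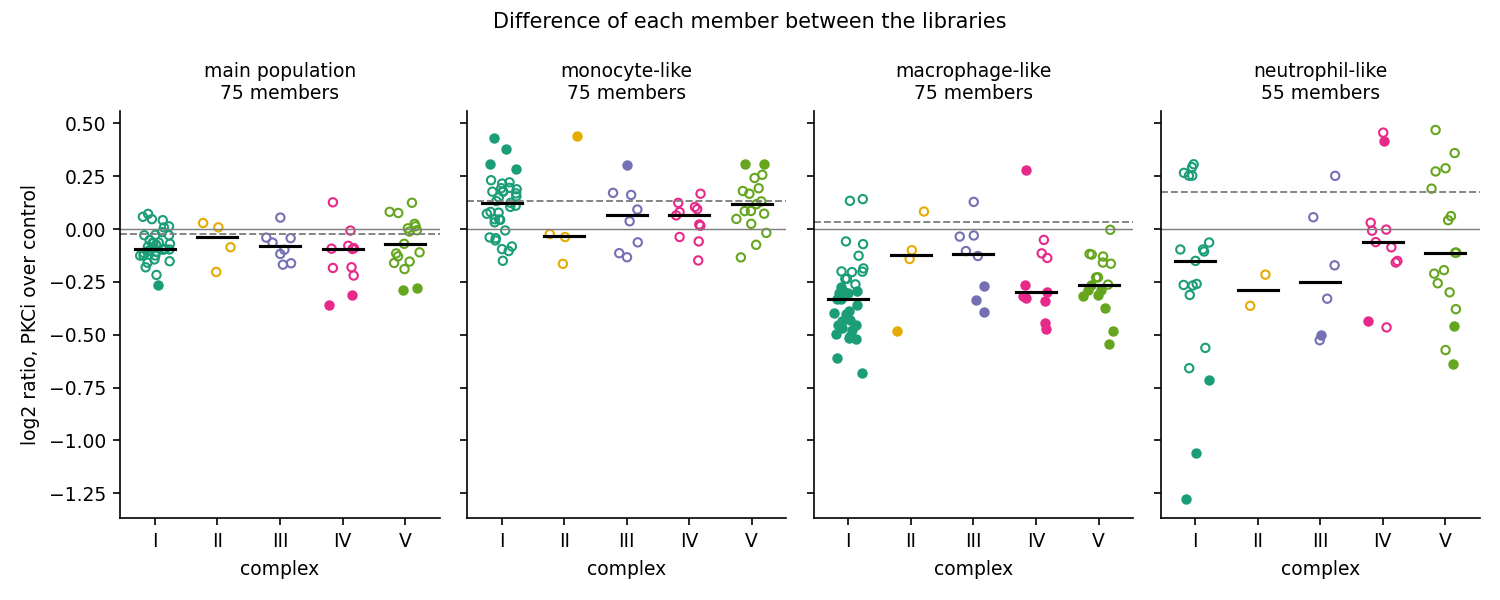
Each point is 1 member in 1 cell class, plotted by complex, as the log2 ratio of PKCi over control; filled points differ by at least 1.2-fold with an interval that excludes 1, black lines are medians of a complex and the dashed line is the median of all genes compared. In macrophage-like cells 42 of 75 points are filled and lie below 0, while the main population shows 5 and monocyte-like cells 8 above 0.

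**Figure D3:**
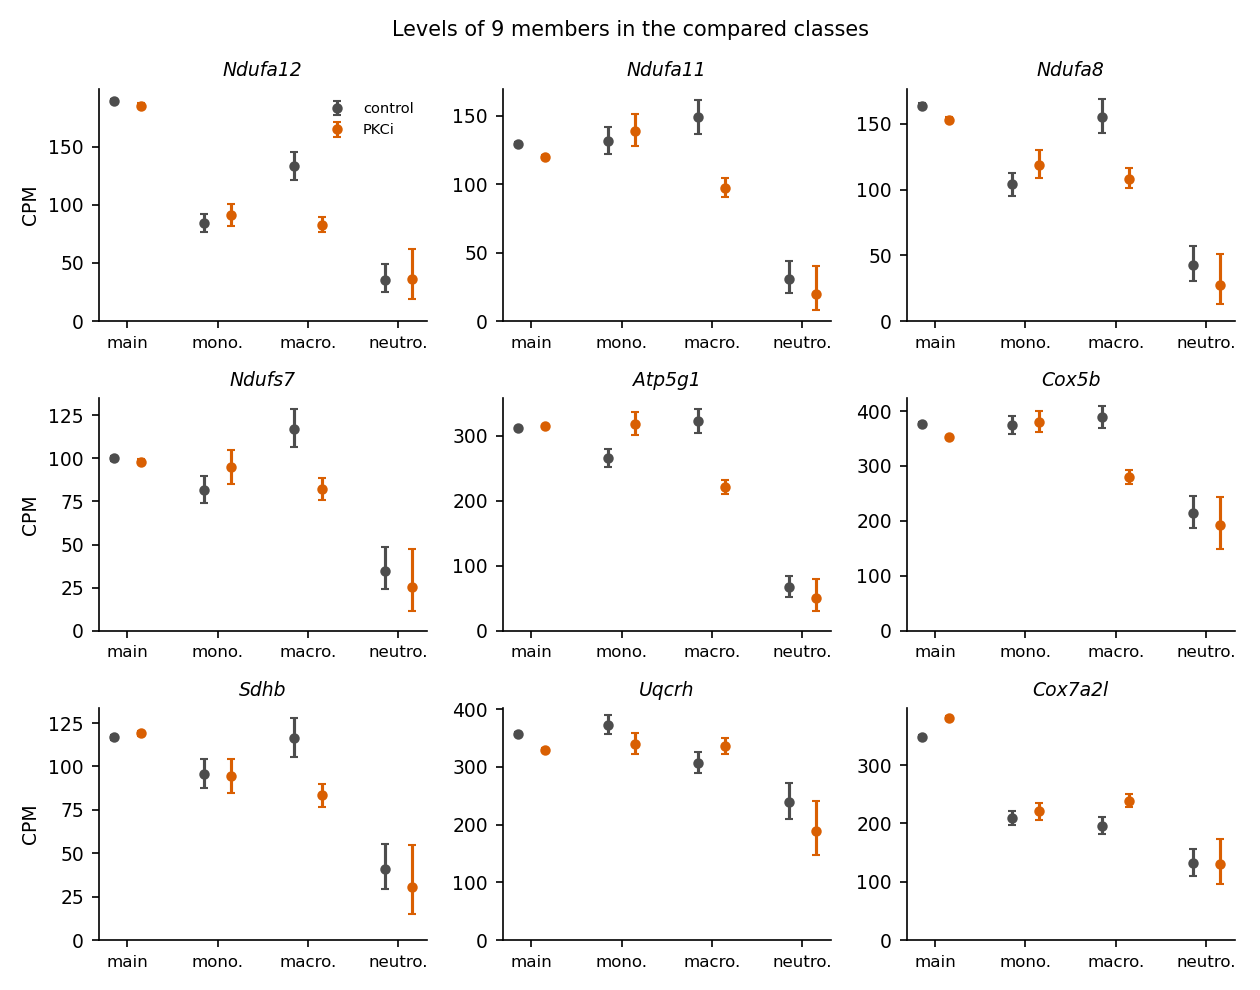
Levels in CPM of 9 members in the main population and the monocyte-like, macrophage-like and neutrophil-like cells, control in grey and PKCi in orange, with exact 95% Poisson intervals (counting error only). Ndufa12 stands at 133.2 and 82.9 CPM in macrophage-like cells and at 189.0 and 185.2 CPM in the main population, while Cox7a2l is higher in PKCi in both.

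The libraries' macrophage-like cells differed in other ways, whose part in this result was tested only as follows. Genes of proliferation summed to 1111 CPM in control and 598.7 CPM in PKCi. Without cells that held 2 or more UMIs of these genes, 63 control and 232 PKCi cells remained, the shares were 1.71% and 1.57% and the log2 ratio -0.12, and 15 of 75 members were lower, where 10.8% of all genes were. The difference was thus smaller without those cells. This cut also depends on depth and on free RNA, since the same genes summed to 1817 CPM in control and 1781 CPM in PKCi main-population cells. It therefore cannot show the part of proliferation, which was not tested apart from these. Assigned by markers alone, macrophage-like cells gave -0.15 and 20 lower members, where 11.9% of all genes were. Median depth was 16684 UMIs in control and 11919.5 in PKCi, and with each cell thinned to 5000 UMIs the log2 ratio was -0.23. With main-population RNA subtracted it was -0.27. Subunits encoded by mitochondrial DNA went the other way, from 2.03% to 2.25% of UMIs (ratio 1.11), with mt-Co1 higher (3066 and 3715 CPM). Of 68 mitochondrial ribosome genes 39 were lower and 1, Mrpl3, higher (ratio 0.790), with Mrps11 at 26.6 and 14.5 CPM. Hypoxia genes were higher for 7 of 11, led by Vegfa (110.6 and 275.9 CPM) and Ero1l (90.9 and 172.7 CPM). Of 7 electron carriers and coenzyme Q genes 3 were lower, among them Ndufab1, the mitochondrial acyl carrier protein (159.5 and 107.8 CPM). The cytosolic ribosome was even, with 3 of 81 genes higher and 2 lower. Macrophage markers summed to 16861 CPM in control and 12205 CPM in PKCi, all 10 above 50 CPM in both, and monocyte markers to 14989 and 13314 CPM, with 5 and 4 of 10 above 50 CPM. Dendritic markers summed to 159.5 and 346.8 CPM, with 1 and 2 of 10 above 50 CPM. The part of these classes in the result was not tested.

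Monocyte-like cells had the opposite sign, within the drift of the class as a whole. Their summed share was 1.62% in control and 1.73% in PKCi (ratio 1.06, interval 1.05 to 1.07), and 8 of 75 members were higher, where 29.8% of 5535 genes were, and 0 were lower, where 13.3% were. The median of all genes was itself shifted by 0.13 on the log2 scale and that of the members by 0.09. Relative to all genes the members were thus not higher: scaled by the median of ratios, the log2 ratio of the sum was -0.04 in place of 0.09. With that scaling 2 members were higher, where 17.1% of genes were, and 4 lower, where 21.2% were. By markers alone the log2 ratio was -0.08, but that class of 661 control and 754 PKCi cells took in 613 main-population cells. Its values therefore do not describe the monocyte-like cells alone. By markers alone 0 were higher, where 5.41% of genes were, and 6 lower, where 7.40% were. The 8 genes were Sdha (57.6 and 78.1 CPM, log2 ratio 0.44), Ndufb7 (173.8 and 234.5 CPM, 0.43), Ndufv1 (37.9 and 49.3 CPM, 0.38), Atp5a1 (259.2 and 321.4 CPM, 0.31), Ndufb4 (98.5 and 122.0 CPM), Atp5g2 (344.2 and 426.7 CPM), Uqcrq (367.9 and 454.3 CPM) and Ndufa10 (70.4 and 85.7 CPM). Sdha, the flavin-bearing subunit that works in both the TCA cycle and the chain, was the only one of the 4 complex II genes past the rule, and Sdhd was the lowest member at 75.9 and 67.7 CPM (-0.16). Genes of the TCA cycle were higher for 6 of 12, with Idh3a at 18.9 and 28.3 CPM and Ogdh at 69.7 and 100.8 CPM. Those of the cytosolic ribosome were higher for 30 of 81, from 14.3% to 17.0% of UMIs.

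In neutrophil-like cells the direction of the summed level depended on the processing. Their share was 0.692% in control and 0.639% in PKCi (ratio 0.924, interval 0.881 to 0.969), and 55 members could be compared at their depth of 1007108 and 358886 UMIs. Of these 1 was higher, where 28.5% of 2800 genes were, and 7 were lower, where 12% were. By markers alone 29 of 75 were lower, where 10.8% of genes were, and 0 higher, where 18.8% were. With a limit of 10% mitochondrial UMIs 11 were higher, where 34.5% of genes were, and 3 lower, where 9.10% were. The median of all genes was shifted by 0.18 on the log2 scale and that of the members was -0.15. The lower members were Ndufv3 (70.5 and 27.9 CPM), Ndufb7 (101.3 and 47.4 CPM), Ndufa13 (93.3 and 55.7 CPM), Atp5h (145.0 and 91.9 CPM), Uqcrq (226.4 and 158.8 CPM), Atp5l (307.8 and 222.9 CPM) and Cox7c (208.5 and 153.3 CPM). Cox8a was higher, at 541.2 and 721.7 CPM. The class was made of different clusters in each library, which cannot be told apart from the treatment: 102 control and 4 PKCi cells in the cluster led by Retnlg and S100a8, 141 and 29 in the one led by Cstdc4 and Stfa2l1, and 24 and 134 in the one led by G0s2 and Hdc. The shares in control and PKCi were 0.637% and 0.470% in the first, 0.721% and 0.528% in the next and 0.884% and 0.665% in the last, lower in PKCi in each. With the 2 clusters of at least 20 cells in each library weighing alike, an alternative added after seeing the data, the log2 ratio was -0.43. Under 3 other ways of filtering or clustering the sum was higher in PKCi, with log2 ratios of 0.06 to 0.07 in place of -0.11. These classes held more cells, 291 to 295 in control and 185 to 188 in PKCi. Krt8 in them stood at 180.1 to 181.9 CPM over both libraries, against 38.7 CPM in control and 61.3 CPM in PKCi here. With doublets kept, Krt8 stood at 217.9 CPM and the log2 ratio was -0.12. The part of the added cells in the sign was not tested. Thinning to 5000 UMIs left only 2 PKCi cells.

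Within the main population, the share of respiratory chain genes was lower in cells with more RNA of hypoxia genes. The cells of each library were ordered by their mean level of 15 hypoxia genes, among them Adm, Bnip3, Vegfa and Slc2a1, and divided in 5 equal groups. These are ranges of a score and not cell types. From the lowest to the highest group, the summed share in control was 1.998%, 1.81%, 1.70%, 1.62% and 1.51% of UMIs. In PKCi it was 1.92%, 1.72%, 1.64%, 1.51% and 1.46%. The order was thus the same in both libraries, and PKCi was lower in each of the 5 groups. The groups were cut within each library, so groups of the same rank are not matched in their level of hypoxia genes. These genes made up 0.178% of UMIs in the highest group in control and 0.121% in PKCi, and 0.0289% and 0.0277% in the lowest.

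The highest group had 0.756 times the share of the lowest in control and 0.761 times in PKCi. Of 75 members 56 were at least 1.2-fold lower in control, where 21.4% of 6225 genes were, and 61 in PKCi, where 16.5% of 6214 were; 0 were higher in either. The median log2 ratio was -0.44 for members in both libraries, beside 0.04 in control and 0.12 in PKCi for all genes. Below 1 lay 73 of 75 in each. Atp5g1 showed the widest difference, from 404.3 to 227.6 CPM in control and from 396.4 to 247.0 CPM in PKCi, followed in control by the core complex I subunit Ndufs8, from 106.7 to 61.3 CPM there and from 108.3 to 71.7 CPM in PKCi. Sdhb went from 142.4 to 88.6 CPM and from 148.6 to 100.6 CPM. Cox4i1, from 684.1 to 519.2 CPM and from 697.2 to 533.1 CPM, followed the sum.

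A few members did not follow. Cox7a2l went from 335.5 to 387.6 CPM in control (ratio 1.16) and from 382.2 to 394.7 CPM in PKCi (1.03). Ndufs1, the largest subunit of complex I, had ratios of 1.02 and 0.974, and Sdha 0.926 and 1.05. Cox7a2l and Ndufs1 were also the 2 members with the highest ratio of PKCi over control in macrophage-like cells. Cox7a2l had the highest ratio in the main population too. Atp5g1 and Ndufs8 were among the lower members in macrophage-like cells, where 42 of 75 members and 17.4% of all genes were lower. These genes were picked after their values were seen, and a link between the 2 patterns was not tested.

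Depth and other measures moved along with the hypoxia score. Median UMIs per cell were 32692 in the lowest and 39129.5 in the highest group in control, and 27193.5 and 37484 in PKCi. Ordered by UMIs per cell instead, the highest group had 0.872 and 0.847 times the member share of the lowest. With cells thinned to 5000 UMIs before they were ordered, the log2 ratio between the hypoxia groups was -0.30 in control and -0.24 in PKCi, in place of -0.40 and -0.39. Thinning also blurs the score, and its part was not tested. Glycolysis genes ran the other way, from 0.631% to 0.978% of UMIs in control and from 0.581% to 0.717% in PKCi. Subunits encoded by mitochondrial DNA went from 1.71% through 1.85% in the middle group to 1.61% in control, and were higher at each step in PKCi, from 1.40% through 1.57%, 1.62% and 1.65% to 1.69%. The cytosolic ribosome stayed between 27.7% and 30.5%.

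**Figure D4:**
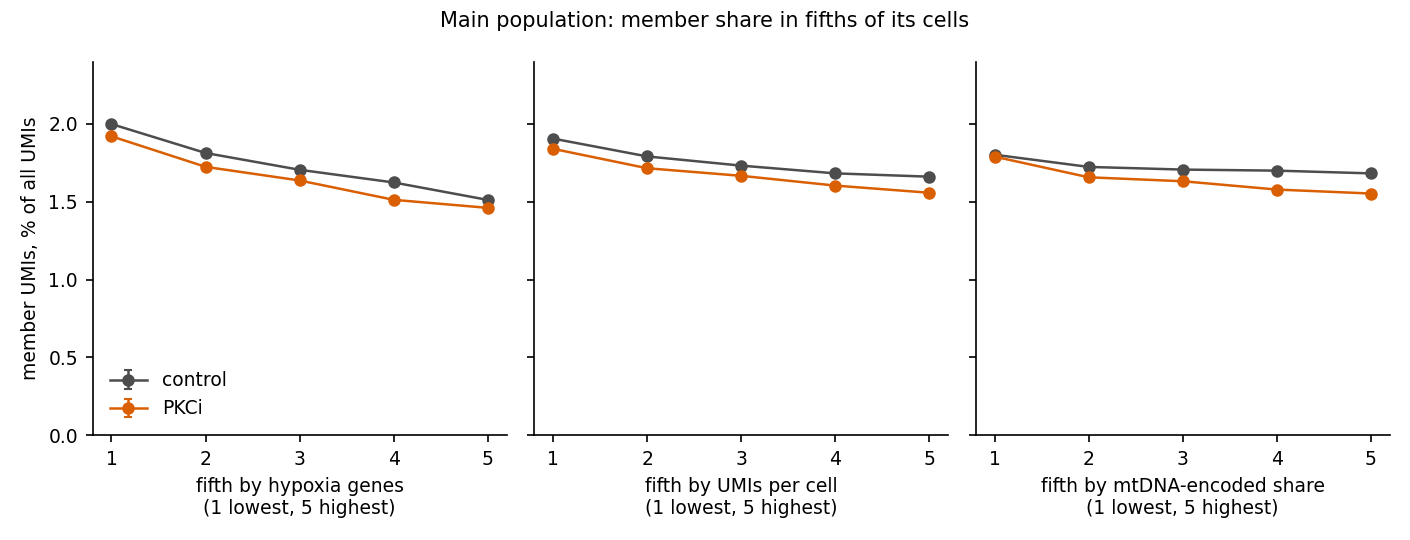
Points give the summed UMIs of the 82 genes as a percent of all UMIs in 5 equal groups of main-population cells, ordered by hypoxia genes, by UMIs per cell and by the share of mitochondrially encoded subunits, control in grey and PKCi in orange; 95% counting intervals are narrower than the points. Along the hypoxia genes the share goes from 1.998% to 1.51% in control and from 1.92% to 1.46% in PKCi.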

How the data were processed

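Single-cell 3' libraries (10x chemistry 3.1) of dissociated tumours were measured, 1 library per treatment. The deposited files hold raw UMI counts for each barcode, which the authors produced with Cell Ranger 7.0.0 per the file headers; the submitters' processing notes also name GRCm38 and Seurat, and the annotation used for counting is not given in the sources used here.

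Barcodes with at least 500 genes and at most 20% mitochondrial UMIs were kept, and doublets were called with Scrublet (expected rate 6%; 1.74% and 1.83% called) and removed. Counts scaled to 10000 per cell were log-transformed, and both libraries were clustered together with scanpy 1.11.5 (2000 variable genes, 30 components, 15 neighbours, Leiden resolution 1.0, mixed clusters split at 0.5). A cluster took the class whose markers reached the highest mean level relative to their highest over clusters, at a score of at least 0.3, with at least 3 markers at 50 CPM and Krt8 under 250 CPM. Clusters with no class at that score, at least 250 CPM of Krt8 and a median UMI count of at least the overall median divided by 3 formed the main population, and the rest stayed unnamed. The naming thresholds were chosen with the data in view.

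UMIs were summed per class and library and divided by the total, with exact binomial or Poisson 95% intervals, which cover counting error only; 0.5 count was added for log2 ratios. Genes with at least 50 UMIs over both libraries and a mean of at least 20 CPM were compared. The intervals of ratios were tested on simulated Poisson counts, which hold counting error only. That test does not cover the spread between cells, clusters or tumours. The members, gene lists and markers were chosen with earlier results of these data known. Members named individually were the 2 highest of each complex in the main population, the 4 highest and 4 lowest ratios of each compared class, the 3 with the widest spread over classes, the Sdh genes, isoforms with restricted expression, those past the 1.2-fold rule where 8 or fewer, and in each related list genes with extreme ratios; others were chosen after their values were seen. Promoters came from RefSeq (GRCm38.p6) and gene positions from GENCODE M21.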

Additional observations from a re-analysis of the deposited data

Results flagged for a closer look

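The summed level of the 82 genes did not lie on the same side of equality in every class. Its log2 ratio of PKCi over control was -0.0757 in the main population, -0.237 in macrophage-like and -0.114 in neutrophil-like cells, and 0.0890 in monocyte-like cells. The subunits encoded by mitochondrial DNA were split in another way, with ratios of 0.900 in the main population, 0.887 in monocyte-like and 1.11 in macrophage-like cells. With 1 library per treatment, these differences between classes were not tested, and the sign in monocyte-like and neutrophil-like cells depends on the processing.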

How the results depend on the processing

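Counting error was small, and the 1 library per treatment set the limit: no interval here covers the spread between tumours. No paired analysis was possible because each group has 1 library. Values are log2 ratios of the summed members, PKCi over control. In the main population (-0.0757) the sign held in all alternatives run: -0.0655 without mitochondrial, ribosomal and haemoglobin UMIs in the total, -0.0513 with median of ratios scaling, -0.0612 with every cell weighing the same, -0.0727 thinned to 5000 UMIs and -0.0615 with classes by markers alone, which put 899 of its cells into fibroblast-like and 613 into monocyte-like cells. Chosen after seeing the data, leaving out the cluster led by Adm and Ndrg1 gave -0.0894, and weighing clusters alike -0.0826. In macrophage-like cells (-0.237) the sign also held: -0.270 with median of ratios scaling, -0.216 with every cell weighing the same, -0.205 with at most 10% mitochondrial UMIs, -0.189 with doublets kept, -0.200 at resolution 0.5, -0.154 by markers alone, -0.217 with clusters made without members and markers and -0.268 with free RNA subtracted. Added later, leaving out cells with 2 or more UMIs of proliferation genes gave -0.125. Lower members there numbered 42, against 15 without the cells with UMIs of proliferation genes (10.8% of all genes were lower). They numbered 20 by markers alone (11.9%) and 35 to 46 in the other settings (13.1% to 22.2%). In monocyte-like cells (0.0890) the sign turned with median of ratios scaling (-0.0422, median over members -0.0384) and by markers alone (-0.0758, median -0.0885). The class by markers alone took in the 613 main-population cells, so its values do not describe monocyte-like cells alone. Otherwise it was 0.134 without mitochondrial, ribosomal and haemoglobin UMIs, 0.0645 with every cell weighing the same, 0.0699 thinned, 0.0721 with the stricter mitochondrial filter, 0.0725 with doublets kept and 0.0576 at resolution 0.5. In neutrophil-like cells (-0.114) the sign turned with the stricter mitochondrial filter (0.0693, median over members 0.0498), at resolution 0.5 (0.0647, median 0.0503), with clusters made without members and markers (0.0572, median 0.0609) and thinned (1.07, on 54 and 2 cells). It was -0.289 with median of ratios scaling, -0.0380 with every cell weighing the same, -0.263 by markers alone, -0.225 with free RNA subtracted and, added later, -0.429 with clusters weighing alike. Relative to the main population, and without mitochondrial, ribosomal and haemoglobin UMIs in the total, monocyte-like cells in PKCi turned from 0.0829 to -0.150 and macrophage-like cells in control from 0.0677 to -0.203. Counts of members past the 1.2-fold rule also moved, given here with the share of all genes in parentheses. With median of ratios scaling, 3 (2.36%) in place of 5 were lower in the main population, 2 higher (17.1%) and 4 lower (21.2%) in place of 8 and 0 in monocyte-like cells, and 0 higher (21.6%) and 11 lower (17.2%) in place of 1 and 7 in neutrophil-like cells. By markers alone, monocyte-like cells had 0 higher (5.41%) and 6 lower (7.40%) and neutrophil-like cells 0 (18.8%) and 29 (10.8%). Neutrophil-like cells had 11 higher (34.5%) and 3 lower (9.10%) with the stricter mitochondrial filter, 10 (33.9%) and 3 (9.11%) at resolution 0.5, 10 (33.9%) and 5 (9.16%) with clusters made without members and markers, and 0 (19.5%) and 12 (7.38%) with doublets kept.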
